A study of Mus musculus with 45 samples.

Results

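The genes described here encode the proteins of the cytosolic ribosome in the brain of Shank3 mutant mice. They were taken by symbol from the table of normalized counts: Rps or Rpl followed by a number, or Rplp0, Rplp1, Rplp2 and Rpsa, protein-coding in the annotation, without the S6 kinase genes and Rps19bp1, and averaging 10 or more across all 45 samples. This rule took 83 of the 18135 genes in the table, of which 33 encode small-subunit proteins, 47 large-subunit proteins and 3 the P proteins of the stalk. A further 15 genes with matching symbols were not protein-coding and were left out, and Rpl3l lay under the minimum. The paralogs Rps4l, Rpl22l1 and Rps27l were kept apart, and Rpl39l was not analysed here. Among the 83 genes, 6 carry the names of copies or close relatives of other ribosomal protein genes (Rpl10-ps3, Rpl36a-ps1, Rpl36al, Rpl7l1, Rps12-ps3 and Rps27rt).

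RNA sequencing was performed on prefrontal cortex, hippocampus and striatum of male C57BL/6J mice aged 13 weeks, which were WT, heterozygous (Shank3-HT) or homozygous (Shank3-HM) for a germline deletion of exons of Shank3, the gene of a postsynaptic scaffold protein. The labels call the homozygous mice knock-out, and each of the 9 groups had 5 samples. The labels do not say whether samples with the same number in different regions came from the same mouse, nor how the tissue was dissected, and p values measure the spread between these samples. All groups shared the strain, the sex and the age. In bulk tissue, fewer cells of a type and less RNA per cell cannot be told apart.

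A ribosome is built of ribosomal RNA and one copy of most ribosomal proteins, while the acidic P proteins form a lateral stalk of the large subunit that recruits elongation factors. The mRNAs of ribosomal proteins are known as TOP mRNAs, which begin with a cytosine followed by an unbroken run of pyrimidines, and their translation is controlled through the mTOR pathway. Neurons translate many synaptic proteins close to synapses, and ribosomal protein mRNAs are also found in axons and dendrites. The question put to these genes was how their levels differed between the 3 regions and between genotypes, gene by gene.

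To show the sequence feature for which these mRNAs are named, the annotated start sites of 10 genes described in the results are printed as 30-base windows of the mouse genome (RefSeq, GRCm38.p6). Each window runs 5′ to 3′ on the strand of the gene with the annotated first base of the transcript at position 16, and capitals mark the unbroken pyrimidine run that holds this base.
Rpl15 (chr14:18270972-18271001, minus strand): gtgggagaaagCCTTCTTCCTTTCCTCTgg
Rps6 (chr4:86857353-86857382, minus strand): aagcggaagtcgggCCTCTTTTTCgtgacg
Rplp2 (chr7:141447636-141447665, plus strand): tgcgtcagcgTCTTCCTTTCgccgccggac
Rpl38 (chr11:114668565-114668594, plus strand): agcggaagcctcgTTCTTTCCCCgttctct
Rps27 (chr3:90213634-90213663, minus strand): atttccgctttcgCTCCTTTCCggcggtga
Rps27rt (chr9:114982725-114982754, minus strand): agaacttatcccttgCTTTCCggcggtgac
Rpl31 (chr1:39367836-39367865, plus strand): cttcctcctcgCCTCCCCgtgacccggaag
Rps24 (chr14:24490663-24490692, plus strand): cccgcgctggggTCCTTCCTTgcgcgttga
Rplp0 (chr5:115559452-115559481, plus strand): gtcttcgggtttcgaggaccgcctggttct
Rpl22l1 (chr3:28805493-28805522, plus strand): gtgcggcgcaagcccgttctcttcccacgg
The promoter table matched 60 of the 83 genes. The annotated first base was a C followed by at least 4 pyrimidines in 14 of these 60 (23.3%), against 813 of the 27025 genes of the table (3.01%), and such a C lay within 5 bases of it in 28 (46.7%) against 5718 (21.2%). By role, the first base had this form in 7 of 24 small-subunit, 6 of 34 large-subunit and 1 of 2 stalk genes. Annotated starts of one gene can lie several bases from the starts used in brain, so a window without capitals, as for Rplp0, says only that these letters are not at the annotated base.

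The libraries were checked before the genes were compared. Shank3 fell in the mutants of every region without overlap: in the cortex it was 6985, 7519, 8365, 8717 and 8437 in WT and 4066, 4446, 4171, 3689 and 3897 in Shank3-HM mice, a log2 difference of -0.98 (SE 0.066, adjusted p = 4.76e-07). In Shank3-HT cortex no gene had an adjusted p under 0.05 in limma, so Shank3 was not called there. The paper lists Shank3 among the lower genes of every mutant group. In cortex Shank3-HM replicate 2 the summed level of 10 striatal markers was 51473, against 5646 to 7234 in the other cortical libraries and 189441 to 257471 in WT striatum. Normalized totals were 26118607 to 29568983 per sample, and the sequencing depth behind them is unknown. The 83 genes took 0.702% to 1.19% of these totals, with a mean over 5 samples of 0.764% ± 0.0414 (SD) in WT cortex, 0.827% ± 0.0568 in WT striatum and 0.941% ± 0.146 in WT hippocampus, or 0.879% ± 0.0567 over 4 samples without its replicate 1. The wide spread in WT hippocampus came with a single library. In hippocampus WT replicate 1 the median over the 83 genes lay 0.38 above the mean of the 15 hippocampal libraries on the log2 scale, with 82 of 83 genes above it, while the other 44 libraries lay between -0.20 and 0.14 from the mean of their region. In the same library the median of 73 nuclear respiratory chain genes was 0.38 above the mean, that of 1285 other genes with transcripts under 1 kb was 0.25 above it, and that of 13 mitochondrially encoded genes was -0.29. Counts of the 83 genes called between WT hippocampus and the other WT regions are given below with and without this library.

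**Figure D1:**
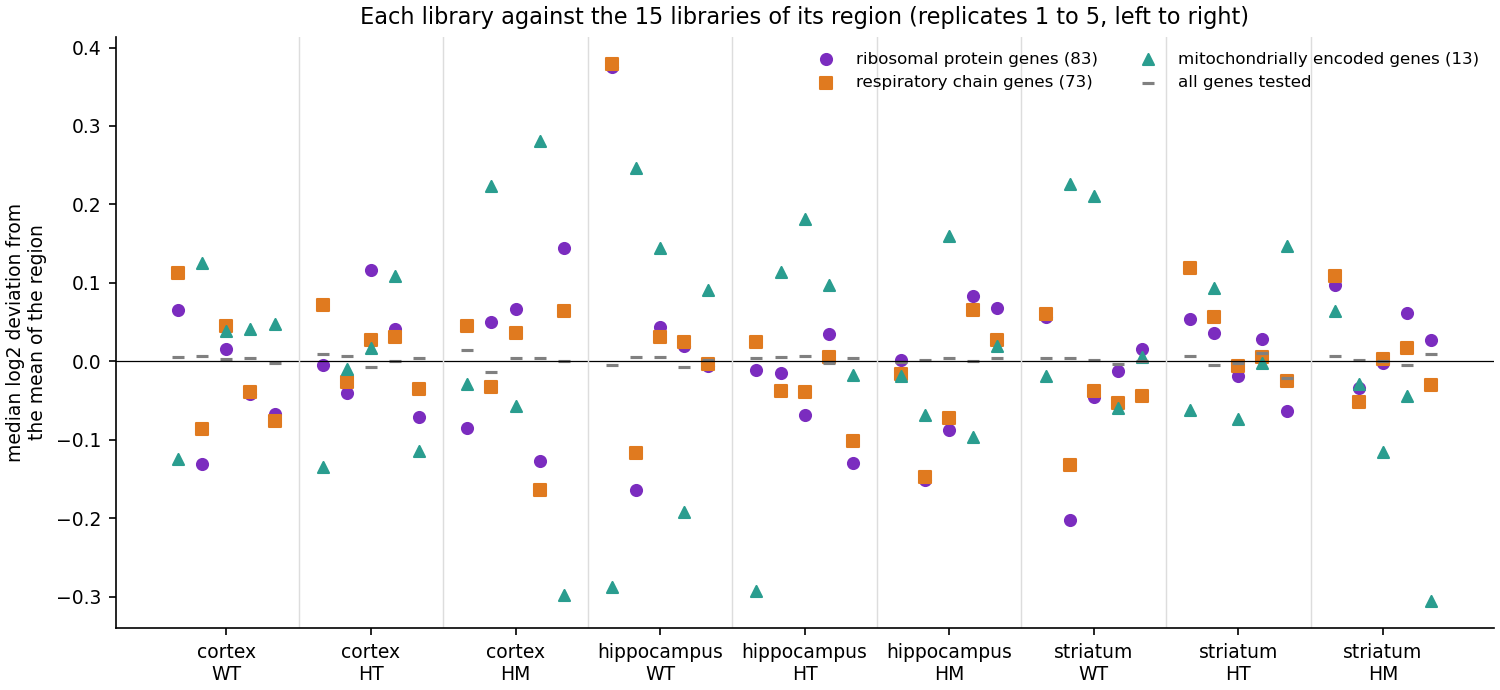
Median log2 deviation of each library (points, replicates 1 to 5 from left to right in each group) from the mean of the 15 libraries of its region, for the 83 ribosomal protein genes, 73 nuclear respiratory chain genes, 13 mitochondrially encoded genes and all genes tested. Hippocampus WT replicate 1 stands at 0.38 for the ribosomal protein genes and for the respiratory chain genes, and the medians of all genes tested stay near 0.

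The genes moved together from library to library within a region. In WT replicate 2 only 13, 12 and 10 of the 83 genes lay above the regional mean for cortex, hippocampus and striatum, with medians of -0.13, -0.16 and -0.20, and in WT replicate 1 71, 82 and 59 did. Cortex Shank3-HM replicate 5 was the next highest library, at 0.14 with 73 genes above the mean. The median coefficient of variation of a gene among 5 samples was 15.4% in WT hippocampus (8.80% without its replicate 1) and 5.81% to 10.3% in the other 8 groups. Batches of library preparation are not in the labels, so values within a batch could not be given.

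Levels per kilobase of annotated transcript, averaged over the 3 WT regions, were highest for Rplp1 at 10572 normalized counts per kb, Rps15 at 8314 and Rpl41 at 8079. Rplp1 encodes an acidic stalk protein and Rps15 a protein near the decoding site of the small subunit. The lowest were Rpl36a-ps1 at 26.9, Rpl12 at 201 and Rps27 at 245 per kb. For Rpl12 the annotated transcript of 1242 bases was used, and for Rps27 a near-identical copy is listed apart, as described further on. Over the 45 samples the mean normalized count of a gene was 12.9 to 10579.9, with a median of 2369.

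Between the WT regions, most ribosomal protein genes had their lowest mean level in the cortex, while the region of the highest mean depended on a single library. Of the 83 genes, 62 had their lowest mean in WT cortex, and 62 had their highest in WT hippocampus and 18 in WT striatum. Without hippocampus WT replicate 1, 58 were lowest in cortex, and 37 were highest in hippocampus and 41 in striatum. The ratio of the highest to the lowest regional mean had a median of 1.21, or 1.16 without that library. In WT hippocampus 42 genes were higher than in WT cortex at an adjusted p under 0.05 in limma and 0 were lower, where 46.6% of the 16708 genes tested passed in either direction, 23.3% higher and 23.3% lower. In all, 79 genes lay above 0, and the median log2 difference was 0.22 against 0.0056 over all genes tested. Without hippocampus WT replicate 1, 25 genes were higher and 1 lower, and the median was 0.13.

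**Figure D2:**
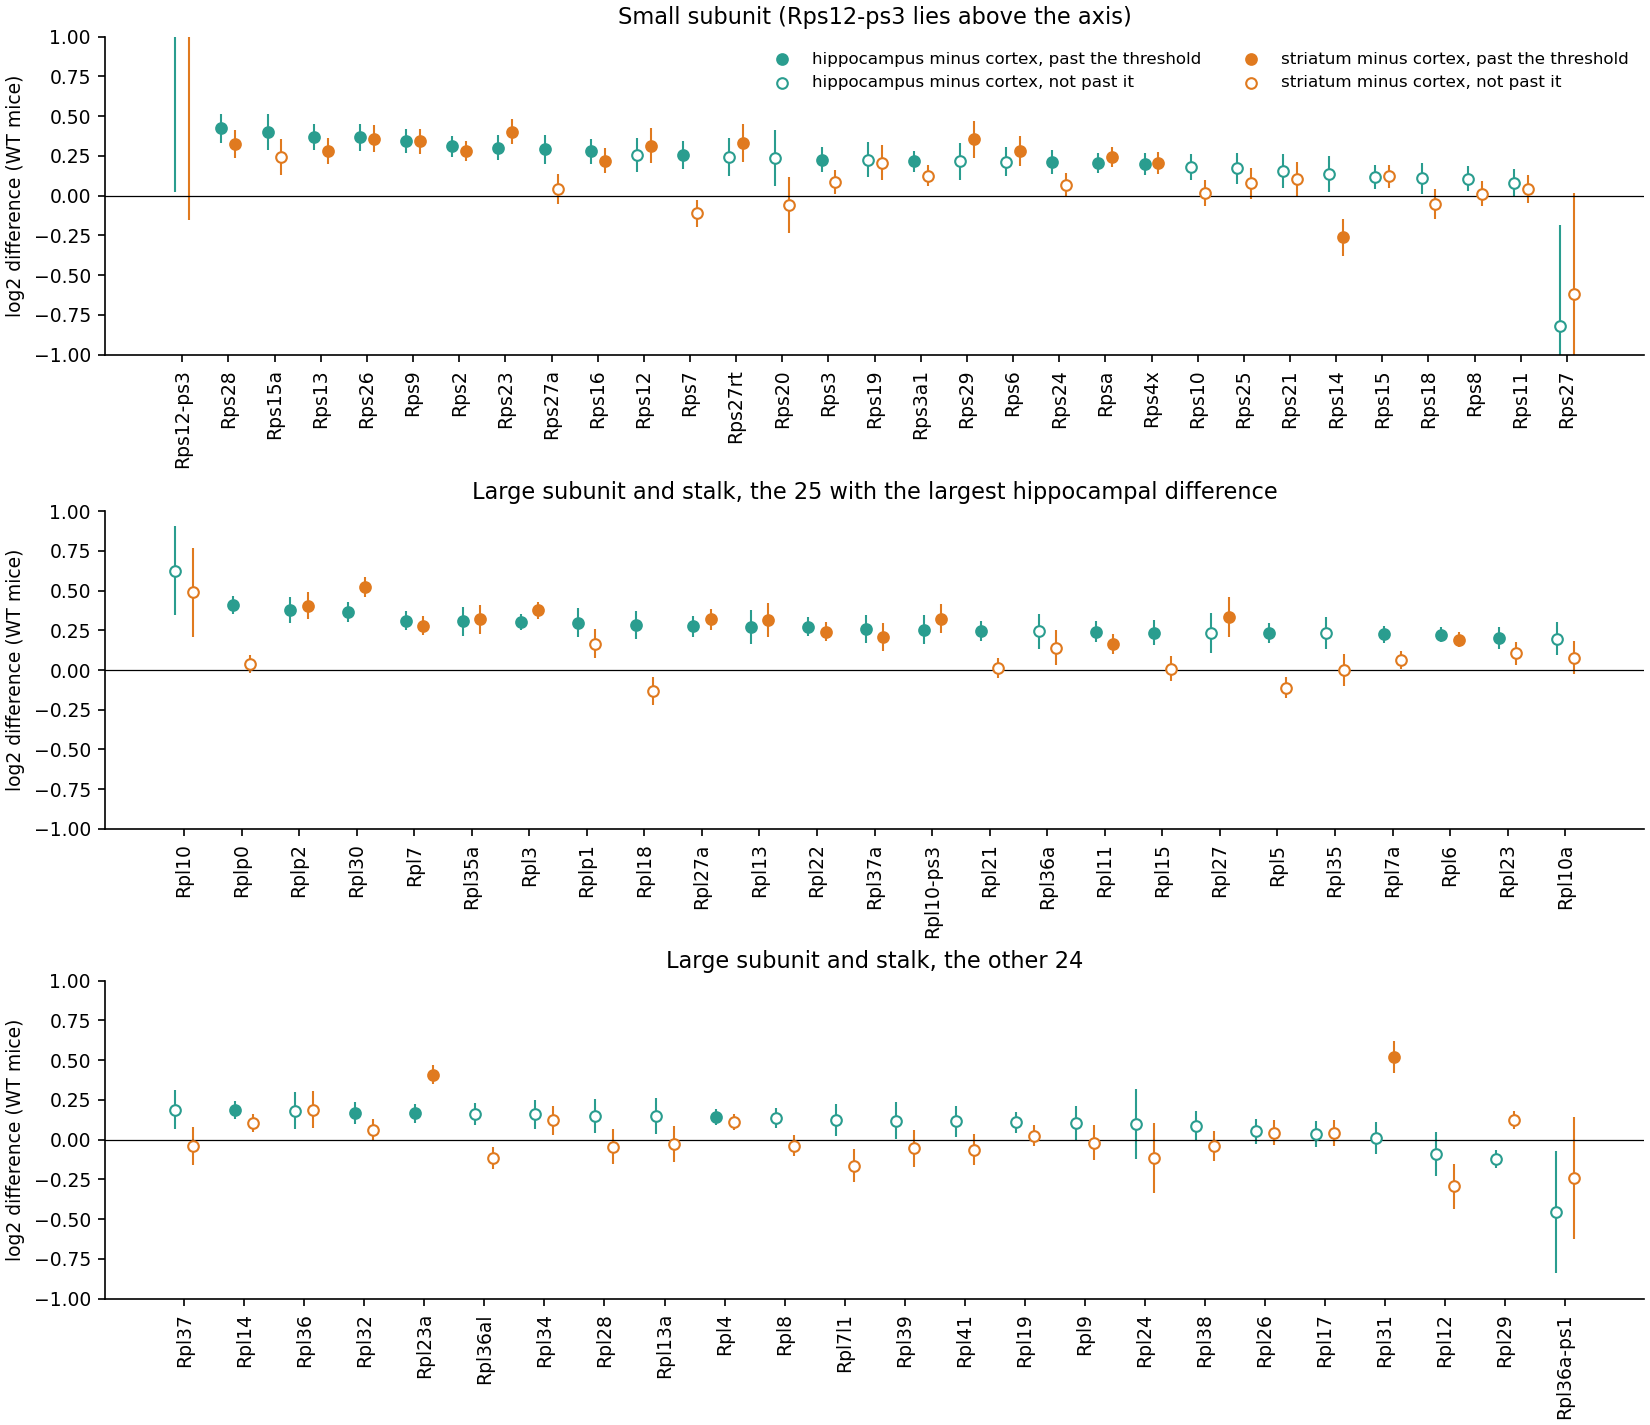
Log2 difference of 80 of the 83 ribosomal protein genes between WT hippocampus and WT cortex and between WT striatum and WT cortex (bars, SE; filled points, adjusted p under 0.05 in limma; open points, not past it), with 5 samples per group. Rps12-ps3 lies above the axis at 2.09 and 1.92, neither past the threshold, and 76 of the 80 genes have a hippocampal difference above 0.

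Among the small-subunit genes 17 of 33 were higher in WT hippocampus than in WT cortex, with a median log2 difference of 0.23, and 10 with a median of 0.14 without hippocampus WT replicate 1. Rps28, a small protein of the head of the small subunit, was 635, 619, 606, 619 and 691 normalized counts in the 5 WT cortices and 1004, 695, 846, 941 and 798 in the 5 WT hippocampi. Every hippocampal sample lay above every cortical one, with hippocampal replicate 2 just above the highest cortex, and the log2 difference was 0.42 (SE 0.09, adjusted p = 0.000129), or 0.36 (adjusted p = 0.00115) without hippocampus WT replicate 1. Rpsa, the laminin receptor protein that sits on the small subunit, had the smallest difference among the genes whose groups did not overlap, at 0.21 (SE 0.063, adjusted p = 0.00632), and at 0.13 (adjusted p = 0.0615) without hippocampus WT replicate 1. Past the threshold were also, among others, Rps13, Rps15a, Rps16, Rps2, Rps23, Rps24, Rps26, Rps27a, Rps3, Rps3a1, Rps4x, Rps7 and Rps9, with log2 differences from 0.20 to 0.40 over all samples. Of these, the calls of Rps24, Rps27a, Rps3, Rps3a1, Rps4x and Rps7 were lost without hippocampus WT replicate 1, at 0.12 to 0.19.

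All 3 stalk genes were higher in WT hippocampus than in WT cortex. Rplp0, the base of the stalk, was 3144, 2689.6, 3025, 2919.6 and 3073 in WT cortex, 4607, 3427, 3803, 4124 and 3831 in WT hippocampus and 3199, 2799.9, 3019, 3089.6 and 3119.8 in WT striatum. The hippocampal samples stood above all others, and the cortical and striatal samples overlapped. The log2 difference was 0.41 (SE 0.057, adjusted p = 9.67e-08) between hippocampus and cortex (0.35 without hippocampus WT replicate 1) and 0.037 (SE 0.057, adjusted p = 0.607) between striatum and cortex. Its partner Rplp2 had another order, at 1579, 1729, 1659.6, 1641 and 1641 in WT cortex, 2678, 1990.3, 2092, 2130.4 and 1901 in WT hippocampus and 2104, 2275, 2139, 2166 and 2237 in WT striatum, so that hippocampus and striatum overlapped and both lay above the cortex. Rplp2 differed from the cortex by 0.38 (SE 0.084, adjusted p = 0.000231) in the hippocampus, 0.30 without that library, and by 0.40 (SE 0.084, adjusted p = 5.93e-05) in the striatum. Rplp1 differed from the cortex by 0.30 (SE 0.089, adjusted p = 0.00512) in the hippocampus and by 0.17 (SE 0.089, adjusted p = 0.107) in the striatum, and its hippocampal call was lost without hippocampus WT replicate 1, at 0.19 (adjusted p = 0.0513).

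Among the large-subunit genes 22 of 47 were higher in WT hippocampus than in WT cortex, with a median log2 difference of 0.19, and without hippocampus WT replicate 1 13 were higher and 1, Rpl29 at -0.20, was lower, with a median of 0.12. Groups of 5 and 5 samples did not overlap for 9 of them, 6 small-subunit and 2 stalk genes, which is 17 of 83 genes where 15.5% of all genes tested were higher without overlap. Without that library 17 genes were higher and 1 was lower without overlap, where 18.3% and 19.2% of all genes tested were. The smallest differences among these large-subunit genes were those of Rpl6 at 0.22 (SE 0.046, adjusted p = 9.74e-05) and Rpl21 at 0.24 (SE 0.063, adjusted p = 0.00124), and without the library both were 0.16. Rpl3, at the peptidyl transferase center, differed by 0.30 (SE 0.052, adjusted p = 5.21e-06), from 9039 ± 433 in WT cortex to 11199.9 ± 1358 in WT hippocampus (mean ± SD of 5), or by 0.23 without the library. The widest log2 differences outside the copies and their parent genes were -0.12 for Rpl29 and 0.42 for Rps28.

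In WT striatum 30 genes were higher than in WT cortex and 1 was lower, where 59.3% of all genes tested passed in either direction, 30% higher and 29.3% lower. The median log2 difference was 0.12 against 0.011 over all genes tested. The higher genes were 14 of 33 small-subunit, 15 of 47 large-subunit and 1 of 3 stalk genes, and the medians were 0.21 for small-subunit and 0.078 for large-subunit genes. Groups did not overlap for 19 higher genes, where 22.9% of all genes tested were higher in this way. A total of 24 genes (28.9%) were higher than in cortex in both the hippocampus and the striatum, as were 12.3% of all genes tested, and 29 (34.9%) were called in none of the 3 pairs of WT regions, as were 22.7% of all genes tested. These counts were 18 (21.7%) and 40 (48.2%) without hippocampus WT replicate 1, against 12.5% and 23.9% of all genes tested. Summed with their copies, Rpl10a, Rpl36a and Rpl37 of the 29 passed between hippocampus and cortex (adjusted p = 0.017, 0.00076 and 0.0493 in limma). So did Rpl10, given further on, while Rpl28, Rps19 and Rps27 stayed uncalled in every pair. Rps12 and Rps6 gained this call too (adjusted p = 0.00045 and 5.9e-05). Against cortex, Rpl14 gained and Rps16 lost a striatal call (adjusted p = 0.0141 and 0.104). These sums used all samples.

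Rpl30, a large-subunit protein at the interface of the subunits, had the largest called striatal difference. It was 2162, 1785, 2065, 1898 and 1905 in WT cortex, 2953, 2309, 2541, 2513 and 2335 in WT hippocampus and 2953, 2741, 2891, 2905 and 2603 in WT striatum. Levels rose in that order of regions, with the hippocampal and striatal samples overlapping, and the log2 difference between striatum and cortex was 0.52 (SE 0.061, adjusted p = 8.1e-10). Rpl31, a protein beside the exit of the peptide tunnel, was 2604, 2203, 2951, 2472 and 2224 in WT cortex, 3457, 2114, 2305, 2536 and 2257 in WT hippocampus and 3961, 3368, 3289, 3547 and 3653 in WT striatum. Here hippocampal and cortical samples overlapped, with a log2 difference of 0.01 (SE 0.10, adjusted p = 0.945), or -0.11 without hippocampus WT replicate 1, while striatum exceeded cortex by 0.52 (SE 0.10, adjusted p = 1.89e-05). Rpl23a, also at the exit of the tunnel, was 3600.4, 3298, 3397, 3362 and 3263 in WT cortex and 4956, 4332, 4392, 4486 and 4303 in WT striatum, a log2 difference of 0.41 (SE 0.06, adjusted p = 1.29e-07). Rps6, the substrate of the S6 kinases, differed by 0.28 (SE 0.092, adjusted p = 0.00824) without overlap and was named after its values were seen. At the other end of the genes without overlap lay Rpl6 at 0.19 (SE 0.046, adjusted p = 0.000429), Rpl22 at 0.24 (SE 0.059, adjusted p = 0.000531) and Rpsa at 0.25 (SE 0.063, adjusted p = 0.000937).

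The 1 gene lower in WT striatum than in WT cortex was Rps14, a small-subunit protein of the platform, named here after its values were seen. It was 3203, 2440.3, 3054, 2925 and 2725 in WT cortex and 2719, 1972, 2313, 2417 and 2555 in WT striatum, so that the groups overlapped, and the log2 difference was -0.26 (SE 0.11, adjusted p = 0.0451). The call was lost without cortex WT replicate 1, 3 or 4 or striatum WT replicate 2, 3 or 4, with log2 differences of -0.22, -0.24, -0.25, -0.19, -0.25 and -0.27. It was also lost without the intensity trend (adjusted p = 0.0546) and with quantile normalization (adjusted p = 0.0521). Without striatum WT replicate 1, 2 genes were lower.

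Between WT striatum and WT hippocampus the genes split. A total of 4 genes were higher in the striatum and 13 lower, where 56.1% of all genes tested passed, 27.8% higher and 28.3% lower, and the median was -0.087 against -0.0019 over all genes tested. When values were scaled to the sample total in place of the authors' normalization, 2 genes were higher and 35 lower, with a median of -0.20. Leaving out hippocampus WT replicate 1 gave 6 higher and 7 lower genes. The lower count was 25 without hippocampus WT replicate 2 and 8 without striatum WT replicate 2, and the median was 0.0045 without hippocampus WT replicate 1 and -0.044 without striatum WT replicate 2. Groups did not overlap for 4 lower genes and 0 higher ones, where 19.4% and 19.1% of all genes tested were of these kinds, and without hippocampus WT replicate 1 for 4 lower and 6 higher genes, where 21.7% and 21.5% were.

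The 4 genes lower in the striatum without overlap were Rplp0, Rpl5, Rpl36al and Rpl21. Rpl5, which binds the 5S ribosomal RNA together with Rpl11, was 1245, 1163, 1279.6, 1047 and 1072 in WT hippocampus and 1006, 901, 889.6, 865 and 905 in WT striatum. All hippocampal samples lay above all striatal ones, and the log2 difference was -0.34 (SE 0.065, adjusted p = 1.86e-05). For Rplp0, with the values given above, it was -0.37 (SE 0.057, adjusted p = 4.23e-07). Rpl36al, a retained relative of Rpl36a, differed by -0.28 (SE 0.07, adjusted p = 0.000811) and Rpl21 by -0.23 (SE 0.063, adjusted p = 0.00148). The largest fall, at -0.42 (SE 0.088, adjusted p = 8.79e-05), was that of Rpl18, whose groups overlapped. Without hippocampus WT replicate 1 these differences were -0.32 for Rpl5, -0.32 for Rplp0, -0.20 for Rpl36al, -0.15 for Rpl21 and -0.30 for Rpl18, all still past the threshold. The other lower genes were Rps14 and Rps7, which also passed without that library, and Rpl15, Rpl35, Rpl7a, Rpl7l1, Rpl8 and Rps27a, which did not.

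The 4 genes higher in the striatum than in the hippocampus were Rpl31, Rpl29, Rpl23a and Rpl30, all of the large subunit and named as all genes of this count. Their log2 differences were 0.51 (SE 0.10, adjusted p = 2.88e-05), 0.25 (SE 0.055, adjusted p = 0.000218), 0.24 (SE 0.06, adjusted p = 0.000598) and 0.16 (SE 0.061, adjusted p = 0.0246). The call of Rpl30 was lost without hippocampus WT replicate 2 or 5 (log2 difference 0.13 for each) or striatum WT replicate 1 (0.14), 3 (0.15) or 4 (0.15). Scaled to the sample total, those of Rpl23a and Rpl30 were both lost, at 0.13 and 0.047.

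**Figure D3:**
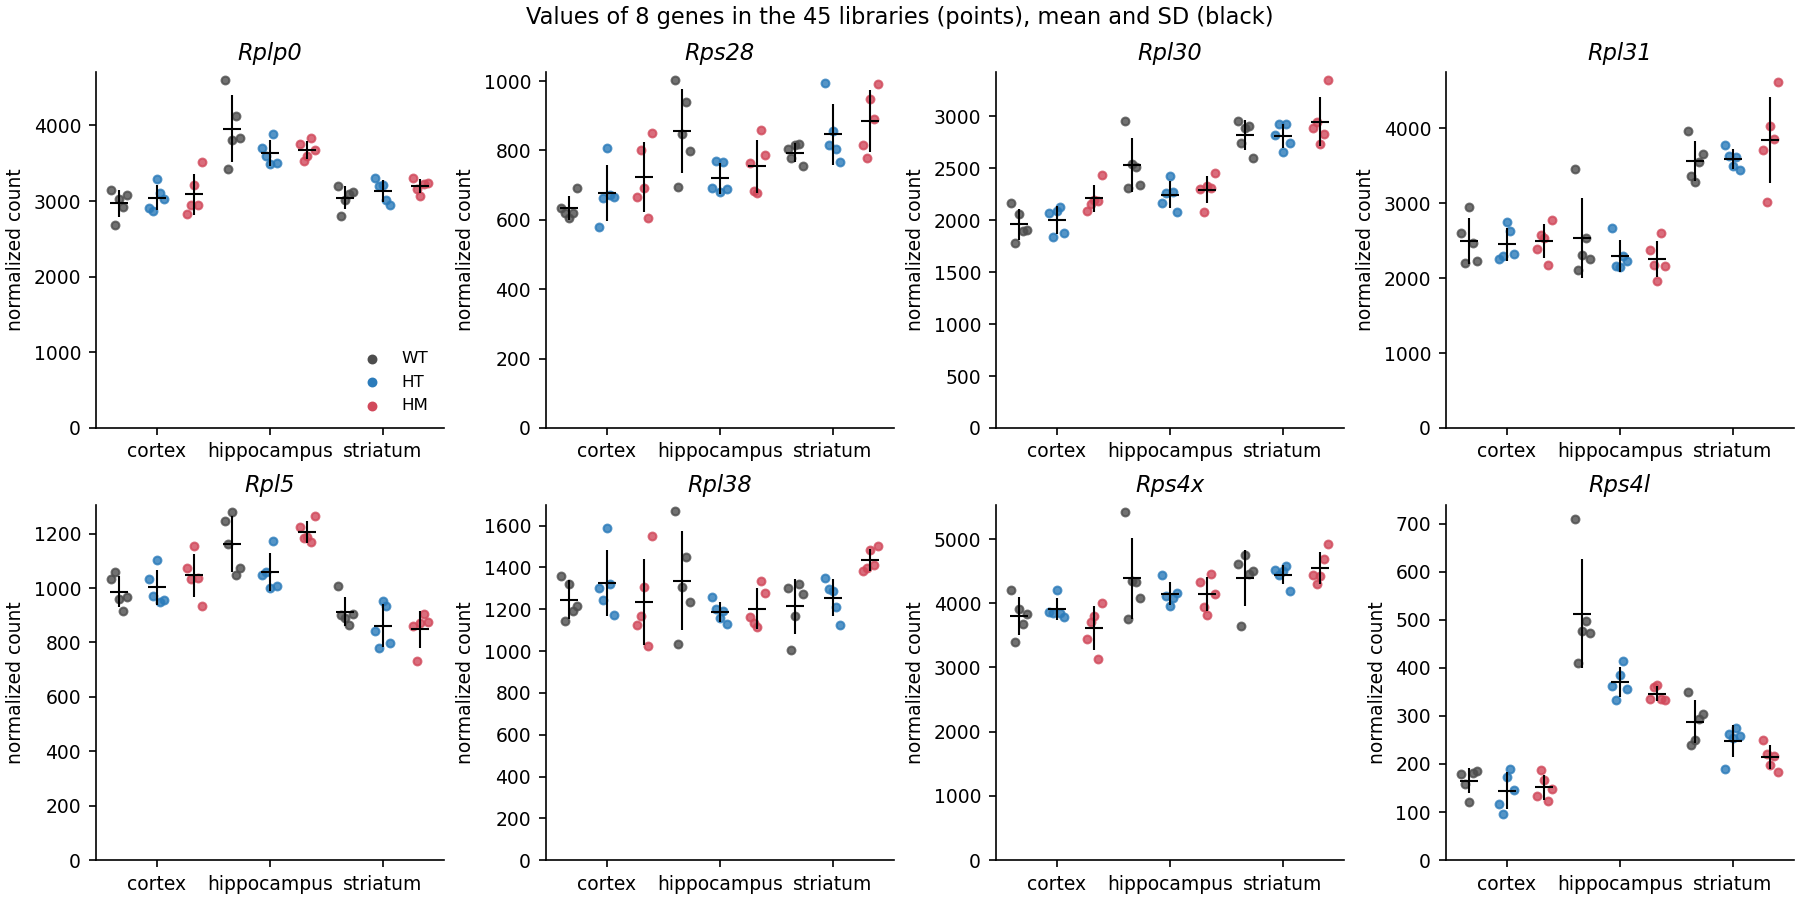
Normalized counts of 7 ribosomal protein genes and of the paralog Rps4l in the 45 libraries (points), with mean and SD of each group of 5 in black, by region and genotype. Rplp0 is highest in all hippocampal groups, Rpl31 in all striatal groups, and Rps4l ranges from a mean of 165 in WT cortex to 513 in WT hippocampus.

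The same pairs of regions were then compared among Shank3-HT samples and among Shank3-HM samples, which are other samples. In the hippocampus against the cortex, 15 genes were higher and 0 lower in Shank3-HT mice (22.9% and 22.1% of all genes tested) and 15 higher and 0 lower in Shank3-HM mice (21% and 21.2%), with medians of 0.082 and 0.094. Of the 42 genes higher in WT hippocampus, 42 kept their direction among Shank3-HT and 41 among Shank3-HM samples, and 15 and 15 (35.7% each) were called again. Of all genes higher in WT hippocampus than in WT cortex, 80.2% were called again among Shank3-HT samples, 76.1% among Shank3-HM samples and 69.3% in both. When hippocampus WT replicate 1 was left out, 14 (56%), 13 (52%) and 11 (44%) of 25 genes were, against 83.5%, 79.7% and 73% of all such genes. Among the 10 genes (23.8%) called in all 3 genotypes were Rpl10-ps3, Rpl11, Rpl14, Rpl18, Rpl3, Rpl6, Rpl7, Rplp0 and Rps2, of which Rpl10-ps3, Rpl14 and Rpl18 lost the WT call without hippocampus WT replicate 1. Rplp0 was higher in the hippocampus by 0.26 (SE 0.057, adjusted p = 0.000279) for Shank3-HT and by 0.26 (SE 0.057, adjusted p = 0.000295) for Shank3-HM mice.

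In the striatum against the cortex, 29 genes were higher and 2 lower in Shank3-HT mice (29.5% and 29.1% of all genes tested) and 31 higher and 1 lower in Shank3-HM mice (28.8% and 28.6%), with medians of 0.11 and 0.15. Of the 30 genes higher in WT striatum, 27 (90%) were called again in Shank3-HT mice, 25 (83.3%) in Shank3-HM mice and 24 (80%) in both, Rpl30, Rpl31, Rpl23a and Rplp2 among them. Of all genes higher in WT striatum, 86.5%, 83.9% and 78.3% were. Without cortex Shank3-HM replicate 2, the library with high striatal markers, 31 genes were higher and 1 lower in striatum against cortex, and 15 were higher and 1 lower in hippocampus against cortex.

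Counts for striatum against hippocampus were not those of WT mice, and the difference was tested only gene by gene, as given further on. In the striatum against the hippocampus, 14 genes were higher and 5 lower in Shank3-HT mice (26.4% and 27.2% of all genes tested) and 11 higher and 3 lower in Shank3-HM mice (26.7% and 28.2%), with medians of 0.048 and 0.062, where WT mice had 4 higher, 13 lower and a median of -0.087, or 6, 7 and 0.0045 without hippocampus WT replicate 1. Rpl23a, Rpl29, Rpl30 and Rpl31 were higher in the striatum in all 3 genotypes, as were 74.6% of all genes higher in WT striatum than in WT hippocampus. Rpl18, Rpl5 and Rplp0, 3 of the 13 lower genes (23.1%), were lower in all 3, as were 77.1% of all lower genes. These shares were 4 of 7 (57.1%) and 80.6% without hippocampus WT replicate 1. Rpl31 differed by 0.65 (SE 0.10, adjusted p = 4.64e-07) among Shank3-HT and 0.76 (SE 0.10, adjusted p = 1.38e-08) among Shank3-HM samples, and Rpl5 by -0.30 (SE 0.065, adjusted p = 0.000163) and -0.51 (SE 0.065, adjusted p = 8.16e-09).

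Comparisons of the mutants with WT mice of the same region called 0 of the 83 genes in any of the 6 cases in limma. At an unadjusted p under 0.05, counts were 0 for cortex Shank3-HT, 5 for cortex Shank3-HM, 6 for hippocampus Shank3-HT, 4 for hippocampus Shank3-HM, 2 for striatum Shank3-HT and 10 for striatum Shank3-HM. In the same order, 2.68%, 5.49%, 5.26%, 4.73%, 7.43% and 7.43% of all genes tested lay under it. The share of all genes tested that passed the adjusted threshold was 0%, 0.0121%, 0.00603%, 0.00603%, 0.00607% and 0.182%. The smallest adjusted p of any of the 83 genes was 0.307. Groups of 5 did not overlap for 1 gene in cortex Shank3-HM, 1 in hippocampus Shank3-HT and 1 in striatum Shank3-HM, described next, and for 0 in cortex Shank3-HT, hippocampus Shank3-HM and striatum Shank3-HT, where 0.63%, 0.736% and 0.971% of all genes tested did not overlap. The median SE of a log2 difference was 0.075 for cortical, 0.095 for hippocampal and 0.069 for striatal comparisons.

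Though no gene was called, the genes leaned to one side in each comparison. In the cortex 68 of 83 genes lay above 0 for Shank3-HT and 61 for Shank3-HM mice, with medians of 0.041 and 0.038 against -0.0011 and -0.0025 over all genes tested. In the hippocampus 5 and 12 lay above 0, with medians of -0.090 and -0.077 against 0.0056 and 0.0037. In the striatum 64 and 69 lay above 0, with medians of 0.040 and 0.069 against -0.0058 and 0.00072. As the 83 genes move together in each library, these counts rest on the 5 WT and 5 mutant samples and not on 83 separate observations.

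The medians depended on single libraries, WT and mutant, in both directions. Without hippocampus WT replicate 1, the hippocampal medians were -0.0051 for Shank3-HT and 0.0087 for Shank3-HM mice, with 38 and 48 of 83 genes above 0. Without hippocampus WT replicate 2 they were -0.13 and -0.12, and without hippocampus Shank3-HM replicate 2 that of Shank3-HM was -0.048. In the cortex the Shank3-HT median was 0.068 without WT replicate 1, 0.012 without WT replicate 2 and 0.016 without Shank3-HT replicate 3. The cortical Shank3-HM median was 0.063, 0.015 and 0.061 without WT replicate 1, 2 and 3. Without Shank3-HM replicate 1, 2, 3, 4 and 5 it was 0.061, 0.031, 0.025, 0.074 and 0.0044. In the striatum the Shank3-HT median was 0.065 without WT replicate 1 and 0.0010 without WT replicate 2, and the Shank3-HM median was 0.032 without the latter.

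**Figure D4:**
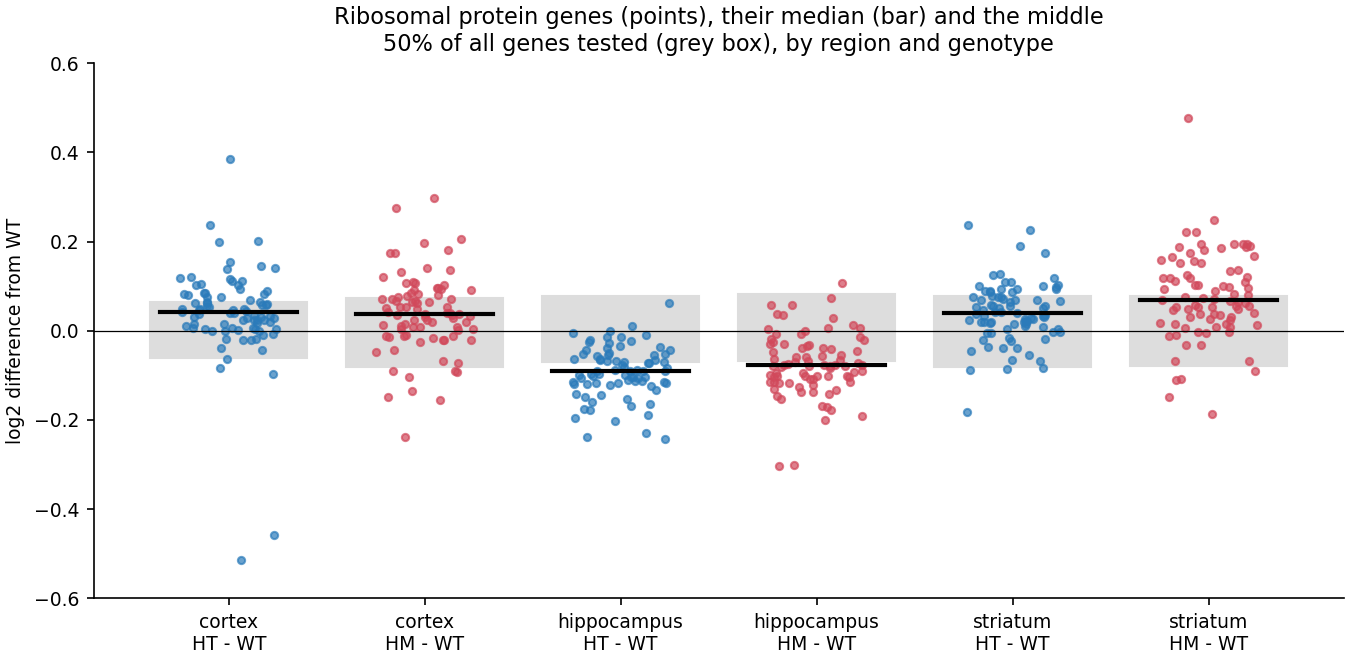
Log2 difference from WT of the 83 ribosomal protein genes (points) with their median (black bar) and the middle 50% of all genes tested (grey box), for Shank3-HT and Shank3-HM mice in each region. Medians lie between -0.090 and 0.069, and 4, 1 and 1 genes lie outside the axis in hippocampus Shank3-HT, hippocampus Shank3-HM and striatum Shank3-HT.

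In the cortex Rps24, a small-subunit gene mutated in Diamond-Blackfan anemia, had the smallest p in both mutants. It was 4701, 4463, 4723, 4679.6 and 4091 in WT, 4899.7, 4886, 4906, 5150.4 and 4501 in Shank3-HT and 4779.6, 5108, 5012, 5717 and 4966 in Shank3-HM cortex. The Shank3-HM samples lay above all WT samples, where 0.8% of all genes tested did not overlap, with a log2 difference of 0.17 (SE 0.056, adjusted p = 0.877), and Shank3-HT differed by 0.10 with overlap. Next came Rpl30 in Shank3-HM, at 0.17 (unadjusted p = 0.0121 in limma), and Rpl35a in Shank3-HT, at 0.14 (unadjusted p = 0.0809).

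In the striatum of Shank3-HM mice Rpl38, a large-subunit protein known from a mouse mutant with a short tail, had the smallest p. It was 1303, 1006, 1168, 1321 and 1271 in WT, 1350.3, 1298, 1287, 1212 and 1124 in Shank3-HT and 1382, 1398, 1483, 1410.1 and 1504 in Shank3-HM striatum. The Shank3-HM samples lay above the WT samples without overlap, where 1.86% of all genes tested did not overlap, and the log2 difference was 0.25 (SE 0.071, adjusted p = 0.307). The stalk gene Rplp1 followed at 0.19 (SE 0.065, adjusted p = 0.46), with overlapping groups. In Shank3-HT striatum the smallest p values were those of Rpl7l1, at 0.23 (SE 0.082, adjusted p = 0.632), and Rps12, at 0.17 (SE 0.076, adjusted p = 0.659).

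In Shank3-HT hippocampus the smallest p values were those of Rps28 and Rpl10. Rps28 was 1004, 695, 846, 941 and 798 in WT and 692, 768, 680.4, 767 and 689 in Shank3-HT hippocampus, with a log2 difference of -0.24 (SE 0.091, adjusted p = 0.926), and Rpl10 differed by -0.68 (SE 0.26, adjusted p = 0.926), or by -0.15 (SE 0.064, adjusted p = 0.926) when summed with its copy Rpl10-ps3. Rpl13 was the gene without overlap, noted after its values were seen, at 4998, 4132, 4092, 4478 and 4138 in WT and 3872, 3266, 3764, 3929.6 and 3789 in Shank3-HT mice, a log2 difference of -0.23 (SE 0.10, adjusted p = 0.926), where 0.797% of all genes tested did not overlap. In Shank3-HM hippocampus the smallest p values were those of Rpl36a-ps1, at 0.83 (SE 0.34, adjusted p = 0.92) and levels of 4.37 to 25.4, and Rpl37, at -0.30 (SE 0.13, adjusted p = 0.92). With the copies and their parent genes set aside, the log2 differences of the other 73 genes ranged from -0.30 (Rpl37, hippocampus Shank3-HM) to 0.25 (Rpl38, striatum Shank3-HM) over the 6 comparisons and over all samples. The differences above were, without hippocampus WT replicate 1, -0.18 for Rps28, -0.85 for Rpl10, -0.092 for the sum with its copy, -0.18 for Rpl13 and -0.20 for Rpl37.

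The difference of each mutant effect between regions was tested as an interaction in the fit of the 9 groups. Of the 83 genes 0 passed in any of the 6 contrasts in limma, where 0% of all genes tested did for the 3 contrasts of Shank3-HT, and 0.0539%, 0.0718% and 0% did for Shank3-HM between striatum and cortex, striatum and hippocampus, and hippocampus and cortex. At an unadjusted p under 0.05, counts for Shank3-HT were 0 for striatum against cortex, 4 for striatum against hippocampus and 6 for hippocampus against cortex, and for Shank3-HM they were 3, 11 and 8. Of all genes tested 3.46%, 5.6% and 3.35% lay under it for Shank3-HT, and 5.42%, 5.37% and 4.45% for Shank3-HM. For Shank3-HM the smallest p values were those of Rpl27 for striatum against cortex, at -0.39 (SE 0.18, adjusted p = 0.887), of Rpsa for striatum against hippocampus, at 0.27 (SE 0.09, adjusted p = 0.651), and of Rpl30 for hippocampus against cortex, at -0.31 (SE 0.087, adjusted p = 0.968). Medians over the 83 genes were 0.12 and 0.14 for striatum against hippocampus in Shank3-HT and Shank3-HM mice, and 0.034 and 0.051 without hippocampus WT replicate 1. For hippocampus against cortex they were -0.12 and -0.11, and -0.033 and -0.018 without that library. The counts and the named differences above are over all samples, this library included.

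Of the paralogs kept apart, Rps4l had the widest regional range. Rps4l, an intronless copy of the X-linked Rps4x at chr6:148354656-148355598 on the plus strand, is annotated as a transcribed processed pseudogene. It was 179.6, 159, 121, 182 and 185 in WT cortex, 709, 411, 477, 497 and 472 in WT hippocampus and 351, 240.0, 250.2, 293 and 305 in WT striatum. The hippocampus was 3.07-fold higher than the cortex, a log2 difference of 1.62 (SE 0.15, adjusted p = 1.47e-12), and the striatum lay between them, at 0.80 (SE 0.15, adjusted p = 8.35e-06) from the cortex and -0.82 (SE 0.15, adjusted p = 5.94e-06) from the hippocampus. Its parent Rps4x differed by 0.20 (SE 0.071, adjusted p = 0.0191) between hippocampus and cortex and by 0.21 (SE 0.071, adjusted p = 0.0118) between striatum and cortex. The call of Rps4x was lost without cortex WT replicate 2 in both pairs (0.16 and 0.17) and without hippocampus WT replicate 1 in the first (0.12).

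Between genotypes Rps4l did not pass the threshold in any region. In the hippocampus it was 362, 333, 385, 415 and 356 for Shank3-HT and 336, 361, 365, 335 and 332 for Shank3-HM mice. The Shank3-HM samples lay below all WT samples and the Shank3-HT samples overlapped with them, with log2 differences of -0.54 (SE 0.11, adjusted p = 0.714) and -0.45 (SE 0.11, adjusted p = 0.764), or -0.42 and -0.33 without hippocampus WT replicate 1. In the striatum it was 250.1, 221, 198, 217 and 184 in Shank3-HM mice, -0.42 (SE 0.12, adjusted p = 0.312) from WT. Of the stretches of 31 bases in its transcript, 0.876% occur in Rps4x.

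Rps27l, the paralog of Rps27, was 149, 91.8, 96.3, 120.4 and 116 in WT cortex, 179, 122, 189.6, 171 and 176 in WT hippocampus and 129.9, 93.4, 120.1, 131 and 133 in WT striatum. The hippocampus exceeded the cortex by 0.55 (SE 0.15, adjusted p = 0.00184), and the log2 difference between striatum and hippocampus was -0.45 (SE 0.15, adjusted p = 0.00748). Rpl22l1, which can take the place of Rpl22 in the ribosome, was 543 ± 82.2, 665 ± 145 and 555 ± 76.5 in WT cortex, hippocampus and striatum (mean ± SD of 5). Its hippocampal difference from the cortex was 0.28 (SE 0.14, adjusted p = 0.106), 0.35 (adjusted p = 0.0497) without hippocampus WT replicate 2 and 0.16 (adjusted p = 0.37) without hippocampus WT replicate 1. Rpl22 itself was higher in the hippocampus by 0.27 (SE 0.059, adjusted p = 0.000168). Rpl39 differed by 0.12 (SE 0.12, adjusted p = 0.428) between hippocampus and cortex and by -0.17 (SE 0.12, adjusted p = 0.21) between striatum and hippocampus, the latter at -0.28 (adjusted p = 0.0351) without hippocampus WT replicate 2. Both were smaller without hippocampus WT replicate 1, at 0.034 and -0.090.

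Copies of ribosomal protein genes share sequence, which bears on how the authors' counting could divide reads. All 83 genes share at least 1 stretch of 31 bases with the transcripts of another gene, and 60 share at least 50% of their 31-base stretches. With genes that are themselves in the table, 23 share at least 50%, 38 share none, and the median is 4.30%. Rps27 (4 coding exons on chromosome 3) and Rps27rt (1 coding exon on chromosome 9) have identical coding sequences of 252 bases, and 98.7% of the 31-base stretches of Rps27 occur in Rps27rt.

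The value listed for Rps27 was 24.5 to 418, against 779 to 1847 for Rps27rt. Rps27 took 1.60% of the sum of both in striatum Shank3-HM replicate 5 and 34.9% in cortex WT replicate 2, with a median of 3.27%. In WT cortex Rps27 was 135, 418, 51, 35.3 and 39.8 and Rps27rt 1308, 779, 1343, 1312 and 1265, so the sample highest in Rps27 was lowest in its copy. The median coefficient of variation within a group was 85.6% for Rps27, 9.52% for Rps27rt and 10.5% for their sum. The log2 difference of Rps27 between hippocampus and cortex was -0.82 (SE 0.64, adjusted p = 0.301), and that of the sum was 0.11 (SE 0.10, adjusted p = 0.399), or -0.92 and 0.0087 without hippocampus WT replicate 1.

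Rpl10, an X-linked gene whose protein joins the large subunit late in its assembly, and its copy Rpl10-ps3 had the same property, with 92.3% of the 31-base stretches of Rpl10 shared. Rpl10 was 431 to 1573 and its copy 2335 to 4829, and Rpl10 took 10.4% (hippocampus Shank3-HT replicate 1) to 33.4% (hippocampus WT replicate 4) of their sum. The median coefficient of variation within a group was 33.2% for Rpl10, 8.77% for the copy and 5.59% for the sum. Alone, Rpl10 differed by 0.63 (SE 0.28, adjusted p = 0.0657) between WT hippocampus and WT cortex, and without hippocampus WT replicate 1 it passed, at 0.80 (adjusted p = 0.0231). Summed with its copy, the difference was 0.35 (SE 0.067, adjusted p = 2.39e-05), or 0.30 (adjusted p = 0.000263) without that library, and between striatum and cortex it was 0.35 (adjusted p = 1.49e-05).

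**Figure D5:**
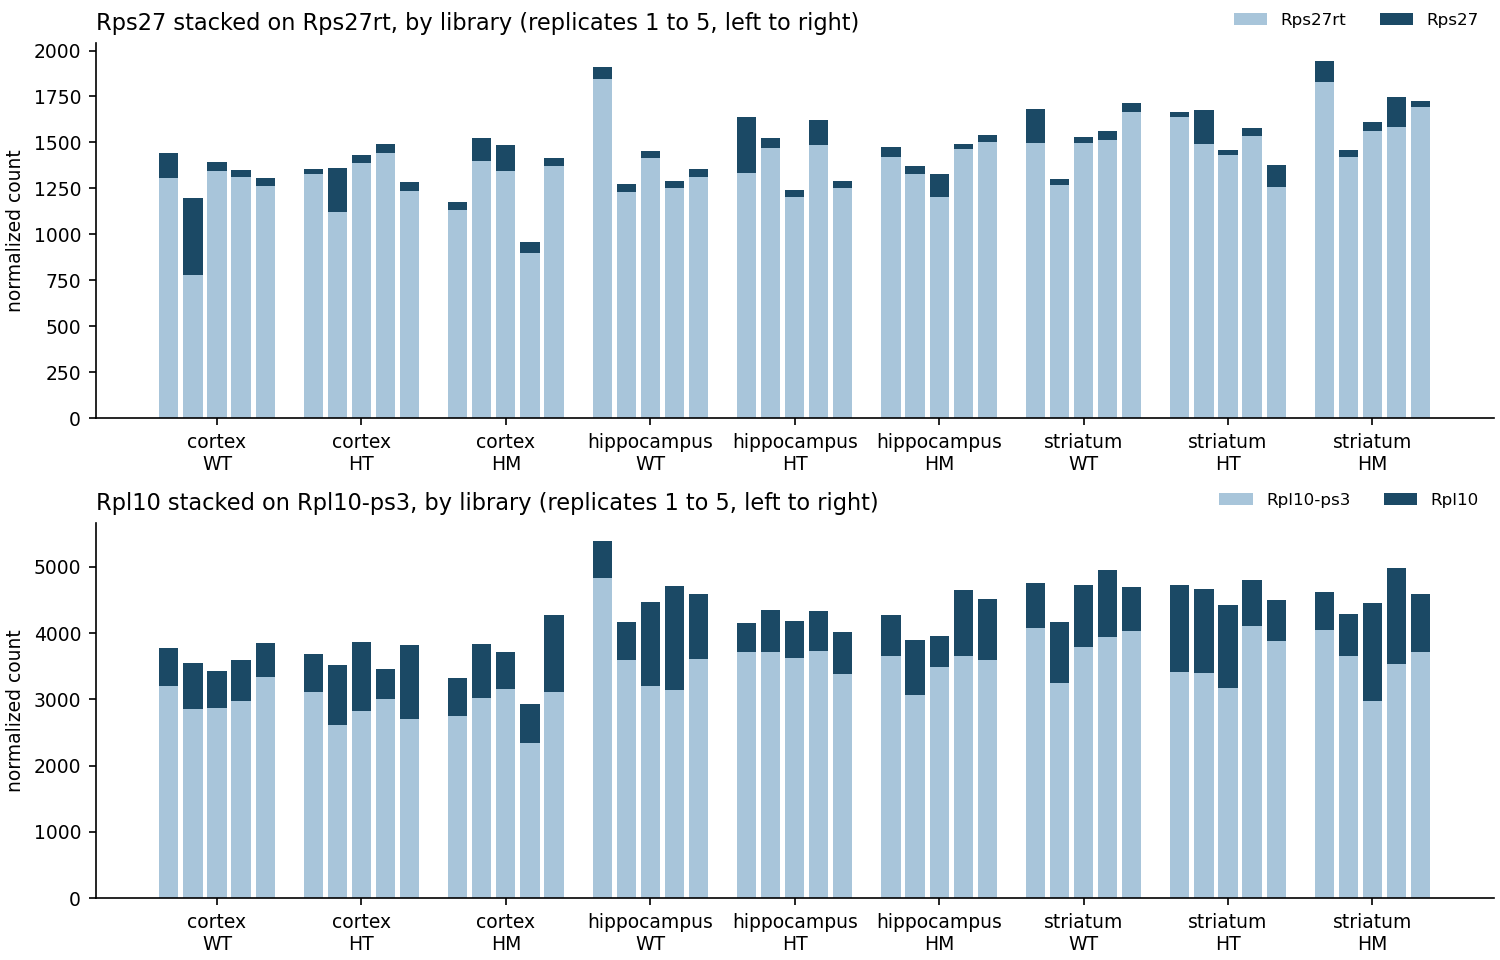
Normalized counts of Rps27 stacked on Rps27rt and of Rpl10 stacked on Rpl10-ps3 in each of the 45 libraries (bars, replicates 1 to 5 from left to right in each group). Sums range from 956 to 1944 for Rps27 and from 2929 to 5393 for Rpl10, and the share of Rps27 is widest in cortex WT replicate 2, at 34.9%.

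Other genes of translation were compared in the same fits, as counts of called genes beside medians. These counts are to be read against the shares of all genes tested given above for the same pairs of WT regions. Of the ribosomal protein genes outside the symbol rule, Rack1 and Fau differed between WT hippocampus and WT cortex by 0.20 (SE 0.072, adjusted p = 0.0172) and 0.14 (SE 0.085, adjusted p = 0.189), or by 0.11 (adjusted p = 0.157) and 0.024 without hippocampus WT replicate 1. Of 15 other TOP mRNAs, which encode translation factors and RNA-binding proteins, 9 were higher and 1 lower in WT hippocampus than in WT cortex (median 0.18), and 9 higher and 0 lower in WT striatum than in WT cortex (median 0.17). Of 9 elongation factor genes 3 were higher and 3 lower in the hippocampus, and 1 higher and 3 lower in the striatum. Of 25 initiation factor genes 7 were higher and 2 lower in the hippocampus (median 0.052), and 4 higher and 6 lower in the striatum. Of 57 ribosome biogenesis genes 12 were higher and 6 lower in the hippocampus (median 0.048) and 12 higher and 13 lower in the striatum, and of 20 regulators of ribosomal protein mRNA and translation 4 were higher and 7 lower in the hippocampus. Hippocampal counts without hippocampus WT replicate 1 were 9 higher and 1 lower for other TOP mRNAs (median 0.15), 3 and 3 for elongation factors, 6 and 3 for initiation factors (median 0.0055), 7 and 4 for ribosome biogenesis (median 0.015) and 3 and 7 for regulators. Of all genes tested 22.6% passed in each direction there. The 12 tested copies that are not protein-coding held 2 higher and 0 lower in the hippocampus and 4 higher and 1 lower in the striatum.

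Of 73 nuclear respiratory chain genes 18 were higher and 0 lower in WT hippocampus than in WT cortex (median 0.10), where 23.3% of all genes tested passed in each direction, 9 higher and 8 lower in WT striatum than in WT cortex (median -0.035), and 3 higher and 25 lower in WT striatum than in WT hippocampus (median -0.14). Without hippocampus WT replicate 1, 5 (6.85%) were higher and 0 lower in hippocampus against cortex (median 0.018), where 22.6% of all genes tested passed in each direction, and 7 were higher and 15 lower in striatum against hippocampus (median -0.046). In Shank3-HT and Shank3-HM hippocampus 4 and 2 of the 73 lay above 0, with medians of -0.094 and -0.092, and 0 were called. Without that library 29 and 26 lay above 0, with medians of -0.015 and -0.015. Of 13 mitochondrially encoded genes 0 were higher and 4 lower in the hippocampus, and 7 higher and 0 lower in the striatum, both against the cortex, and 0 higher and 1 lower in the hippocampus without the library.

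Cell type markers differed between the WT regions beside these genes, with counts to be read against the shares of all genes tested given above. All 12 oligodendrocyte markers exceeded their cortical level in hippocampus (median 1.05) and striatum (median 1.42), with summed levels of 71937 to 93615 in WT cortex, 154218 to 167391 in WT hippocampus and 197930 to 262971 in WT striatum. Of 15 neuronal markers 1 was higher and 9 lower in the hippocampus and 2 higher and 13 lower in the striatum. Of 12 astrocyte markers 2 were higher and 4 lower in the hippocampus and 0 and 10 in the striatum, and of 12 microglial markers 0 were higher and 1 lower (2 without hippocampus WT replicate 1), and 8 and 0. All 12 choroid plexus and ependymal markers were higher in the hippocampus (median 5.81), where their summed level was 3945 to 125377 among the 5 WT samples, against 186 to 332 in WT cortex. Of 12 endothelial and mural markers 2 were higher and 4 lower in the hippocampus and 0 and 1 in the striatum, and of 6 oligodendrocyte precursor markers 4 and 3 were higher. Of the region markers, 0 of 8 cortical ones were higher and 6 lower in WT hippocampus and 1 higher and 7 lower in WT striatum, 8 of 8 hippocampal ones were higher in WT hippocampus, and 10 of 10 striatal ones were higher in WT striatum, all against WT cortex. No defining marker of these lists was at 0 in every sample of a group, and the part of any cell type in the values of ribosomal protein genes was not tested.

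In the genotype comparisons 0 genes of these lists were called in limma. The oligodendrocyte markers, of which 12 of 12 lay above 0 in each mutant group of cortex and striatum, had medians of 0.19 and 0.16 in Shank3-HT and Shank3-HM cortex and of 0.35 and 0.21 in striatum, and -0.00085 and -0.055 in hippocampus. Their hippocampal medians were -0.0038 and -0.071 without hippocampus WT replicate 1, with 6 and 0 of 12 above 0. In Shank3-HT hippocampus 12 of 12 choroid plexus and ependymal markers lay below 0 (median -1.05, or -1.37 without hippocampus WT replicate 1), with summed levels of 1978 to 35001, and in Shank3-HM hippocampus 11 lay above 0 (median 0.16), or 7 (median 0.045) without that library, with 7043 to 62203. Of 15 neuronal markers 9 and 4 lay above 0 in these groups, or 14 and 8 without that library. Microglial and endothelial markers lay below 0 in 11 of 12 each in Shank3-HM hippocampus, with 3 and 1 above 0 without hippocampus WT replicate 1. In Shank3-HM cortex 12 of 12 each lay below 0 (medians -0.093 and -0.18), and 10 of 10 striatal markers lay above it. In cortex Shank3-HM replicate 2 the median of the striatal markers was 3.46 above the mean of the cortical libraries. Shank3-HM replicates 1, 3, 4 and 5 stood at 0.089, -0.29, -0.33 and -0.17, and WT cortices at -0.38 to -0.19. In Shank3-HT striatum 12 of 12 astrocyte (median 0.12) and 6 of 6 oligodendrocyte precursor markers (median 0.14) lay above 0 and 10 of 10 striatal markers below it (median -0.068). The part of these markers in the small shifts of the ribosomal protein genes was not tested.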

How the data were processed

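RNA of 45 samples (3 regions, 3 genotypes, 5 samples each) was sequenced after poly(A) selection with a stranded kit. Per the submitters' processing notes, the authors quantified transcripts of GRCm38 with Salmon 1.1.0 and normalized gene counts with DESeq2 1.26.0 in R 3.6.2. The deposited values are normalized counts with decimals, a signal scaled by the authors to each sample and not whole reads, so no count model was fitted and depth is unknown. Transcript-level assignment can divide reads between near-identical copies.

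From these values, log2(value + 1) was tested with limma 3.58.1 in R 4.3.3 (intensity trend, Benjamini-Hochberg over all genes tested, threshold 0.05) for genes with a mean of at least 10. Regions and differences of effects were compared in a fit of 9 groups, and genotypes in a fit of the 15 samples of a region. All fold changes are on this scale, which understates changes of low genes. Symbols, biotypes and transcript lengths came from GENCODE vM21 and start windows from RefSeq. Descriptions used Python 3.11.15, pandas 2.3.3, numpy 2.4.6 and matplotlib 3.10.9. The fit was tested on simulated data.

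Genes were named as the 4 largest and 4 smallest called differences without overlap in each pair of WT regions, the 2 smallest p values in each genotype comparison, the paralogs with their parents, the 3 highest and 3 lowest per kb, the smallest p of each Shank3-HM interaction, and Rack1, Fau and Shank3. Genes given otherwise, also in lists, were chosen after their values were seen. The members and gene lists were chosen with earlier results of these data known. Alternatives were another pseudocount (0.1), minimum (100, or none) or scaling, no trend, only the groups compared, a replicate block, the genes without copies and each sample left out. Summing copies with parents, and leaving out hippocampus WT replicate 1 or cortex Shank3-HM replicate 2 in comparisons of effects, of mutant regions or of gene lists, were added after seeing the data. Proteins of the paralogs were not analysed here, and some genes that count in the totals are not reported here by name.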

Additional observations from a re-analysis of the deposited data

Results flagged for a closer look

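In a group of 5 samples, the highest or lowest sample was noted where its gap to the nearest other sample exceeded 0.71 of the range of the group, Dixon's critical value, which chance alone passes in about 1 in 20 groups. Among 315 groups (34 named genes and the median of the 83 genes), 33 groups (10.5%) had such a sample, and 0 of the 9 groups of the median did. The genes are not independent, since they share libraries, and 8 of the 33 lay in hippocampus WT replicate 1.

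In hippocampus WT replicate 1 the normalized count stood above the other 4 samples for Rpl10-ps3 at 4829, Rpl18 at 2289, Rpl21 at 7617, Rpl23a at 4614, Rpl29 at 3640, Rpl36al at 1116, Rps4l at 709 and Rpsa at 10339. Hippocampus WT replicate 2 stood below for Rps27l at 121.7. In Shank3-HT hippocampus single samples stood apart for Rpl13 at 3266 (replicate 2), Rpl27 at 998 (replicate 5), Rpl31 at 2662 (replicate 1) and Rps24 at 5655 (replicate 4). In Shank3-HM hippocampus they did for Rpl10-ps3 at 3064 and Rpsa at 7204 (both replicate 2) and Rpl37 at 1887 (replicate 4).

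In the cortex, WT replicate 2 was high in Rps27 at 418.1 and low in its copy Rps27rt at 779.2. In Shank3-HT cortex Rps27 stood at 240.7 in replicate 2, Rpl23a at 3609 in replicate 5 and Rps4x at 4208 in replicate 3. In WT striatum replicate 1 stood apart for Rpl23a at 4956, Rpl27 at 1201, Rpl5 at 1006 and Rps27 at 188.4, and replicate 2 for Rps4x at 3645.

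In Shank3-HT striatum single samples stood apart for Rps4l at 190.0 (replicate 1), Rpl29 at 3219 (replicate 3), and Rpl7l1 at 810.1, Rps12 at 2185 and Rps14 at 2163 (all replicate 5). In Shank3-HM striatum they did for Rpl22l1 at 710.4 (replicate 1) and Rpl5 at 731.7 (replicate 2). What sets these samples apart was not tested.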

How the results depend on the processing

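Of 1759 values recomputed under the alternatives, 1698 kept their direction and their side of the threshold (counts, within 1.5 times), and no count of called genes in a genotype or interaction comparison rose above 0. The labels do not say that a replicate number marks a shared mouse, and not every pair correlated over 0.1, so the fit without the block was kept. Deviations of samples with the same genotype and number in 2 regions correlated at -0.10 to 0.226 (median 0.067), over 0.1 in 16 of 45 pairs, and those of the same region and number in 2 genotypes at -0.12 to 0.15. In WT mice the same numbers in hippocampus and striatum correlated at 0.039 to 0.204, over 0.1 in 4 of 5 pairs. For cortex with hippocampus, cortex with striatum and hippocampus with striatum, 8, 6 and 8 of 10 WT samples correlated best with their own number. In the same order 4, 8 and 8 Shank3-HT samples and 3, 2 and 7 Shank3-HM samples did. A shared origin cannot be told apart from a shared number alone, and p values between regions without the block treat these samples as independent. With a replicate block, 48 genes were higher and 1 lower in WT hippocampus than in WT cortex, 35 higher and 3 lower in WT striatum than in WT cortex, and 4 higher and 14 lower in WT striatum than in WT hippocampus. For WT hippocampus against WT cortex, leaving out single samples gave 25 (without hippocampus WT replicate 1) to 57 higher and 0 to 1 lower. For WT striatum against WT cortex the lower count was 0 without the intensity trend, 0 with quantile normalization, 2 scaled to the total and 0 to 2 without single samples. For WT striatum against WT hippocampus, scaling to the total gave 2 higher and 35 lower, and leaving out single samples gave 7 to 25 lower. For Shank3-HM hippocampus against cortex 1 gene was lower without cortex Shank3-HM replicate 2. The cause of these changes was not tested.

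Some uncalled differences changed sign. Summed with its copy, Rps27 was 0.11 in WT hippocampus and 0.22 in WT striatum against cortex, where Rps27 alone was below 0. Rps27 alone, at 0.20 between striatum and hippocampus, was -0.24 to 0.40 without single samples. Rpl22l1 in WT striatum against cortex was -0.0030 scaled to the total and -0.051 to 0.11 without single samples, and Rpl39 was -0.11 to 0.015. Between WT striatum and hippocampus Rps4x was -0.040 with quantile normalization, -0.11 scaled to the total and -0.046 to 0.087 without single samples, and Rpl22 was -0.074 to 0.019. Without read counts, the depth that limits low genes cannot be given.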
